A study of Mus musculus with 8 samples.

Results

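The apolipoprotein genes Apoa1, Apoa2, Apoa4, Apoa5, Apob, Apoc1, Apoc2, Apoc3, Apoe and Apom were read in whole liver RNA. They were chosen by gene name from the 30266 genes of the deposited table, and all 10 were among the 18315 genes with enough reads to be tested. Every mouse was a male of 8 weeks labelled Mdr2-/-, that is, without the canalicular phospholipid transporter now called Abcb4, whose loss leads to cholestatic liver injury. One group of 4 libraries came from mice given PBS and the other group of 4 libraries from mice given recombinant FGF21 (rFGF21) at 1.0 mg/kg, with livers taken after 4 h. Both groups carry Mdr2-/-, so the comparison concerns the hormone within that genotype. Libraries are named by group and by the number in their column. The labels do not say that each library came from a separate mouse, so the p-values measure the spread between these libraries, which may be technical.

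Apolipoproteins are the protein coat of the particles that carry triglyceride and cholesterol through blood. Liver makes most of them. Apob forms the backbone of very low density lipoprotein (VLDL), Apoa1 and Apoa2 are the main proteins of high density lipoprotein (HDL), and Apoe directs remnant particles to receptors on hepatocytes. The small Apoc proteins and Apoa5 set how fast lipoprotein lipase removes triglyceride, Apoa4 is made in gut and, in mice, in liver, and Apom carries sphingosine phosphate on HDL. FGF21 is a hormone that acts on lipid and glucose metabolism through FGF receptors and the co-receptor beta-Klotho.

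Libraries held 62756328 to 73313449 reads. The member with the fewest reads was Apoc2 with at least 6643 reads per library, which puts its counting error at 1.23% or less, below the spread between libraries of every member. Levels of a gene between libraries are given as CPM, its reads scaled to a common library size after TMM normalization. On that scale albumin (Alb) had a mean of 52271 ± 8560 in the PBS group and 53679 ± 5547 in the rFGF21 group (SD, n = 4 each). The protocol text in the labels names retina, whereas the tissue label is liver, and not a single read of Crx or Rcvrn, genes of photoreceptors, was counted in the 8 libraries (0 reads, a count that allows up to 3 per library). Library PBS 4 stood apart in its mitochondrial transcripts, which took 7.96% of its reads against 3.27% to 4.55% in the other 7 libraries. It also had the highest Alb level, and results that rest on it are given without it.

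The 10 genes together took 3.37% ± 0.16 of all reads in PBS and 3.12% ± 0.12 in rFGF21 libraries (SD, n = 4 each), with ranges of 3.19% to 3.55% and 3.00% to 3.28% that overlap. Levels were compared between genes per length, as RPKM, which divides the reads by the exon length in GENCODE and by the library total. Apoe had the highest level of the 10 at 7552 ± 852 RPKM in PBS libraries, and ranked 5 among all genes of the table by its mean over 8 libraries. Apoa1 followed at 5040 ± 564, Apoa2 at 4160 ± 333 and Apoc1 at 2284 ± 564 RPKM, where the ranges of Apoa1 and Apoa2 overlapped but Apoa1 was above Apoa2 within each library. Apoc3 (794 ± 143 RPKM) and Apoa5 (744 ± 146 RPKM) came next, and their PBS ranges overlapped. Apob stood at 299 ± 26.6 RPKM. The lowest 3, Apom (186 ± 49.4), Apoa4 (156 ± 42.9) and Apoc2 (142 ± 34.9 RPKM), had overlapping ranges and could not be ranked. The order was the same in rFGF21 libraries down to Apob (294 ± 3.62 RPKM), and the lowest 3 again overlapped.

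None of the 10 apolipoprotein genes passed the test between rFGF21 and PBS (adjusted p under 0.05 in edgeR's quasi-likelihood test). Over all genes tested, 2.82% passed, 1.15% as higher and 1.67% as lower. At an unadjusted p under 0.05, 2 members were lower, Apoa2 and Apoa5, and none was higher, where 9.86% of all genes tested were lower at that level. DESeq2 called 1 member lower, Apoa2, against 5.21% of the genes to which it gave an adjusted p, and limma-voom called none, against 1.58% lower over all genes. The fitted log2 fold change was below 0 in 9 of 10 members, against 49.6% of all genes, although it was below 0 in 8 with library totals as the only scaling and in 7 on RPKM values. The members' median was -0.22, beside 0.00338 for all genes tested. It was -0.11 without rFGF21 library 5 and -0.15 without PBS library 5, and from 8 to 10 members lay below 0 when 1 library was left out. Scaling by library totals gave medians of -0.15 and 0.09, and turned the split of all calls from 210 higher and 306 lower to 257 and 178. On log2(RPKM + 1), which also scales by a library total, the medians were -0.13 and 0.06 and that split was 238 and 162.

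Every member's 95% interval lay within a 2-fold change in either direction. The widest reached down to a log2 fold change of -0.76, for Apom, and the highest upper bound was 0.64, for Apoc2.

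**Figure D1:**
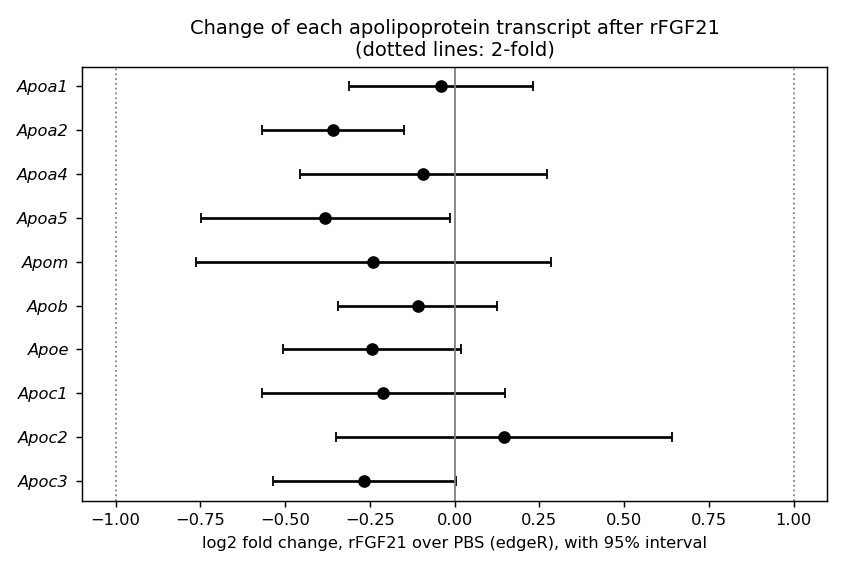
Log2 fold change of each apolipoprotein transcript, rFGF21 over PBS (x axis), as fitted by edgeR with its 95% interval (bars), for 4 libraries per group; dotted lines mark a 2-fold change. The intervals of Apoa2 and Apoa5 lie below 0, those of the other 8 genes include 0, and no interval reaches a dotted line.

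Among the genes of HDL proteins, Apoa2 had the smallest p of the 10 members. Apoa2 (ENSMUSG00000005681, GRCm38 chromosome 1, 171225054 to 171226379) had 2464, 2095, 2243 and 2397 CPM in PBS libraries 1, 2, 4 and 5, and 1744, 1793, 1772 and 1870 CPM in rFGF21 libraries 1, 2, 3 and 5. All 4 PBS libraries lay above all 4 rFGF21 libraries, a separation in the lower direction that 6.39% of all genes tested showed. The means were 2300 ± 165 and 1795 ± 54.4 CPM (SD, n = 4 each), a log2 fold change of -0.36 ± 0.09 (SE) with an edgeR adjusted p = 0.0741. In the fits without 1 library the edgeR adjusted p ran from 0.0661 to 0.196. Over all 17 alternatives the direction was kept, and the call was made by DESeq2 alone (adjusted p = 0.000926, against 0.0640 to 0.212 in the other 16). In RPKM the groups came close, with PBS library 4 at 3839 and rFGF21 library 5 at 3801.

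Apoa1, the gene of the main HDL protein (ENSMUSG00000032083, chromosome 9, 46228580 to 46230466), had 6764, 5245, 6591 and 7108 CPM in the PBS libraries and 7000, 6355, 6164 and 5491 CPM in the rFGF21 libraries, in the same order of libraries. The groups overlapped over almost their whole range. Its log2 fold change was -0.04 ± 0.12 (SE), with a 95% interval of -0.31 to 0.23 and an edgeR adjusted p = 0.902, and its sign changed with library totals alone (0.04), on log2(RPKM + 1) (0.05) and without PBS library 5 or rFGF21 library 5 (0.02 each). As a description chosen after the values were seen, Apoa2 over Apoa1 in RPKM was 0.776 to 0.919 in PBS libraries and 0.573 to 0.784 in rFGF21 libraries, which overlap by rFGF21 library 5.

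Apom (ENSMUSG00000024391, chromosome 17, 35128997 to 35132050) varied more than either. It had 220, 190, 127 and 235 CPM in PBS libraries and 176, 213, 165 and 98.4 CPM in rFGF21 libraries. PBS library 4 and rFGF21 library 5 were the lowest of their groups. The log2 fold change was -0.24 ± 0.24 (SE, edgeR adjusted p = 0.644), and it was -0.39 without PBS library 4 or rFGF21 library 2, -0.12 without PBS library 5 and -0.06 without rFGF21 library 5.

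Apoe (ENSMUSG00000002985, chromosome 7, 19696109 to 19699188) had 16965, 14511, 19970 and 15271 CPM in PBS libraries and 14954, 14571, 13426 and 13393 CPM in rFGF21 libraries. PBS library 2 lay among the rFGF21 values and the other PBS libraries lay above them. The log2 fold change was -0.24 ± 0.12 (SE, edgeR adjusted p = 0.302), and without PBS library 4, which had the highest value, it was -0.14. Apob (ENSMUSG00000020609, chromosome 12, 7977648 to 8016835) had 3630, 4370, 4733 and 4479 CPM in PBS libraries and 3991, 4114, 4025 and 3824 CPM in rFGF21 libraries. The rFGF21 values were close together and all lay inside the PBS range. The difference was -0.11 ± 0.11 (SE) with a 95% interval of -0.34 to 0.12 (edgeR adjusted p = 0.634), and it was -0.02 on log2(RPKM + 1) and with library totals alone. It was -0.06 without PBS library 4 and -0.18 without PBS library 1.

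Among the genes of proteins that act on lipoprotein lipase, Apoa5, an activator of triglyceride removal (ENSMUSG00000032079, chromosome 9, 46268633 to 46271919), had the largest fitted difference of the 10. It had 2214, 1897, 1472 and 2111 CPM in PBS libraries and 1466, 1866, 1410 and 1162 CPM in rFGF21 libraries. The groups overlapped, since PBS library 4 lay level with rFGF21 library 1 and below rFGF21 library 2. The log2 fold change was -0.38 ± 0.17 (SE, edgeR adjusted p = 0.246), from -0.28 without rFGF21 library 5 to -0.51 without rFGF21 library 2.

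Apoc3, an inhibitor of that lipase (ENSMUSG00000032081, chromosome 9, 46232933 to 46235636), had 901, 867, 641 and 894 CPM in PBS libraries and 713, 693, 705 and 635 CPM in rFGF21 libraries. PBS library 4 alone of its group fell among the rFGF21 values. The log2 fold change was -0.27 ± 0.12 (SE, edgeR adjusted p = 0.272). Without PBS library 4 it was -0.37, with an edgeR adjusted p = 0.0536.

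Apoc1, which also restrains the lipase (ENSMUSG00000040564, chromosome 7, 19689481 to 19692660), had 2131, 1765, 1219 and 1843 CPM in PBS libraries and 1577, 1579, 1595 and 1264 CPM in rFGF21 libraries. PBS library 4 was again the lowest of its group, and was the lowest of all 8 libraries. The log2 fold change was -0.21 ± 0.16 (SE, edgeR adjusted p = 0.533), and -0.34 (0.148) without PBS library 4. It was -0.09 (0.822) without PBS library 1 and -0.13 without rFGF21 library 5.

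Apoc2, the cofactor that lipoprotein lipase needs (ENSMUSG00000002992, chromosome 7, 19671579 to 19677941), was the 1 member with a fitted difference above 0. It had 102, 154, 121 and 96.7 CPM in PBS libraries and 130, 95.3, 195 and 104 CPM in rFGF21 libraries. The difference of 0.15 ± 0.22 (SE, edgeR adjusted p = 0.781) rested on rFGF21 library 3, and was -0.11 without it. Reads of Apoc2 are uncertain, because the table also counts Gm44805, a gene on the same strand that overlaps Apoc2 and Apoc4, with a mean of 183 ± 48.4 CPM (PBS) and 131 ± 24.3 CPM (rFGF21), and the sources used here do not say how reads of both genes were assigned.

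Apoa4 (ENSMUSG00000032080, chromosome 9, 46240696 to 46243459) had 219, 383, 250 and 311 CPM in PBS libraries and 296, 233, 288 and 273 CPM in rFGF21 libraries. All 4 rFGF21 values lay inside the PBS range. The difference was -0.09 ± 0.16 (SE, edgeR adjusted p = 0.820), and it turned positive on log2(RPKM + 1) (0.02) and without PBS library 2 (0.07). Gm47528, annotated on the opposite strand over Apoa4, had 18 to 213 reads per library, against at least 14607 reads for Apoa4. Gm47544, opposite Apoa5, had 11 reads or fewer. Whether the counts use strand is not stated, so reads of such pairs cannot be told apart.

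**Figure D2:**
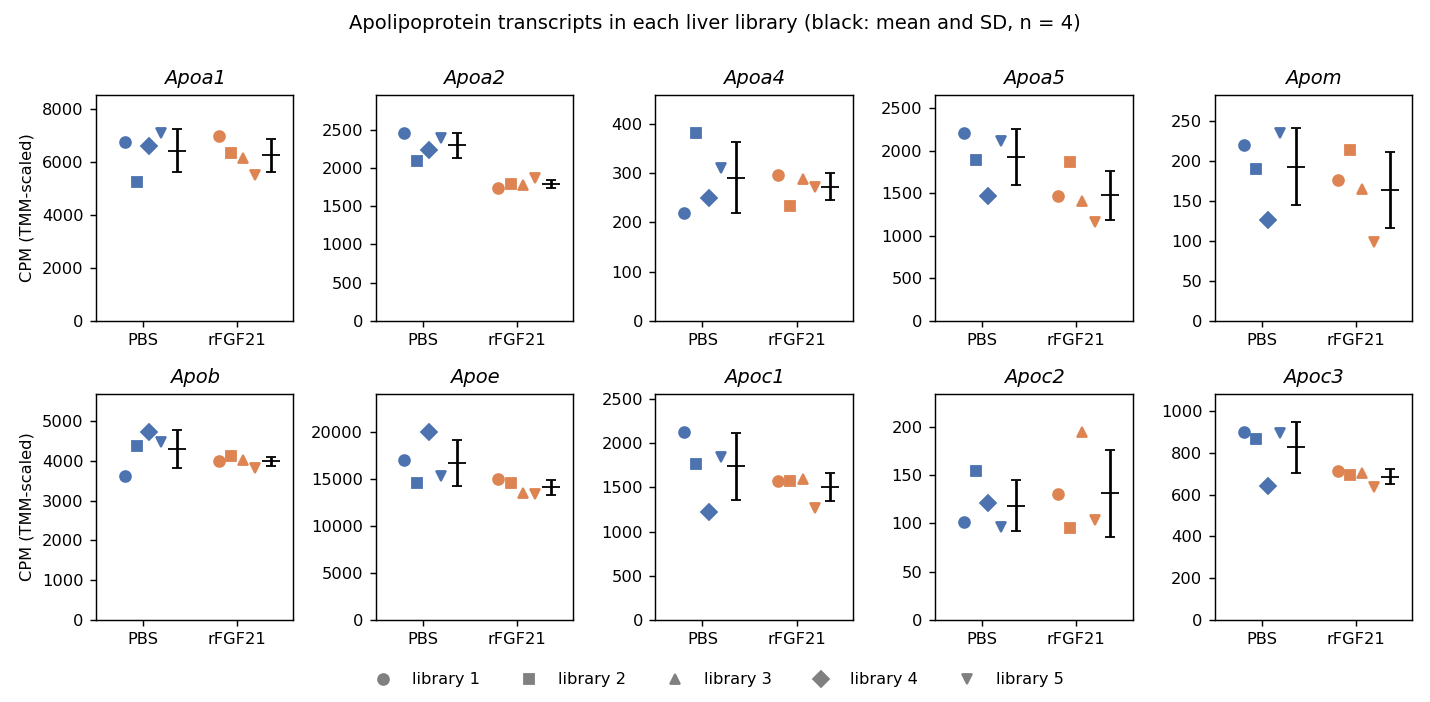
Each panel shows 1 gene; the y axis is TMM-scaled CPM from 0, points are single libraries (blue PBS, orange rFGF21, shape by library number), and black bars are the mean and SD of 4. Apoa2 is the 1 panel in which the groups do not overlap, and PBS library 4 (diamond) lies low for Apoa5, Apom, Apoc1 and Apoc3 and high for Apoe.

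Members of the same gene cluster were set against each other within each library, since such a ratio does not depend on how libraries are scaled. Apoa1, Apoc3, Apoa4 and Apoa5 lie on chromosome 9 with starts within 40053 bases, and Apoc2, Apoc1 and Apoe on chromosome 7 with starts within 24530 bases. None of 5 log2 read ratios differed between groups by a two-sided exact permutation test, for which the smallest possible p is 0.0286. Apoa5 over Apoa1 was -1.75 ± 0.30 in PBS and -2.10 ± 0.23 in rFGF21 libraries (SD, n = 4 each, exact permutation p = 0.114, adjusted over the 5 ratios 0.524). Apoc3 over Apoa1 differed by -0.22 (exact permutation p = 0.257), Apoa4 over Apoa1 by -0.03 (0.914), Apoc2 over Apoe by 0.35 (0.314) and Apoc1 over Apoe by 0.05 (1). Without PBS library 4, Apoa5 over Apoa1 differed by -0.49, Apoc3 over Apoa1 by -0.35 and Apoc1 over Apoe by -0.20, each with an adjusted exact permutation p = 0.0952. With 4 against 3 libraries the smallest possible exact permutation p before adjustment is 0.0571, so no ratio could pass at 0.05 in that comparison. Apoc2 over Apoe was 0.11 without rFGF21 library 3.

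Across single libraries, 4 members had like patterns. Apoc1 and Apoc3, which lie on different chromosomes, had a Pearson r of 0.92 over the 8 libraries (log2 CPM, exact permutation p = 0.000248, adjusted over 45 pairs of members 0.0112) and a Spearman rho of 0.90 (exact permutation p = 0.00456, adjusted 0.163). Without the 2 libraries farthest from the median of Apoc1, r was 0.90. Apoa5 and Apom had r = 0.90 (exact permutation p = 0.00112, adjusted 0.0251), rho = 0.88 (0.00724, adjusted 0.163) and r = 0.81 without the 2 farthest libraries. No other pair passed the adjustment by r, and none passed by rho. The other 4 pairs among Apoa5, Apoc1, Apoc3 and Apom had r between 0.78 and 0.87. Taken as deviations from the group means, r was 0.96 for Apoc1 with Apoc3 and 0.95 for Apoa5 with Apom. Without PBS library 4, with its high mitochondrial share, r was 0.92 and 0.91. The genes of a library also share its depth and scaling factor, and the part of these and of the mitochondrial share in the patterns was not tested. PBS library 4 had the lowest TMM factor (0.919) and rFGF21 library 5 the highest (1.09), and in the latter all 10 members lay below their means in CPM. In RPKM, Apob (299.5 against a mean of 296.9) and Apoa4 (163.8 against 155.4) lay above their means in rFGF21 library 5.

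**Figure D3:**
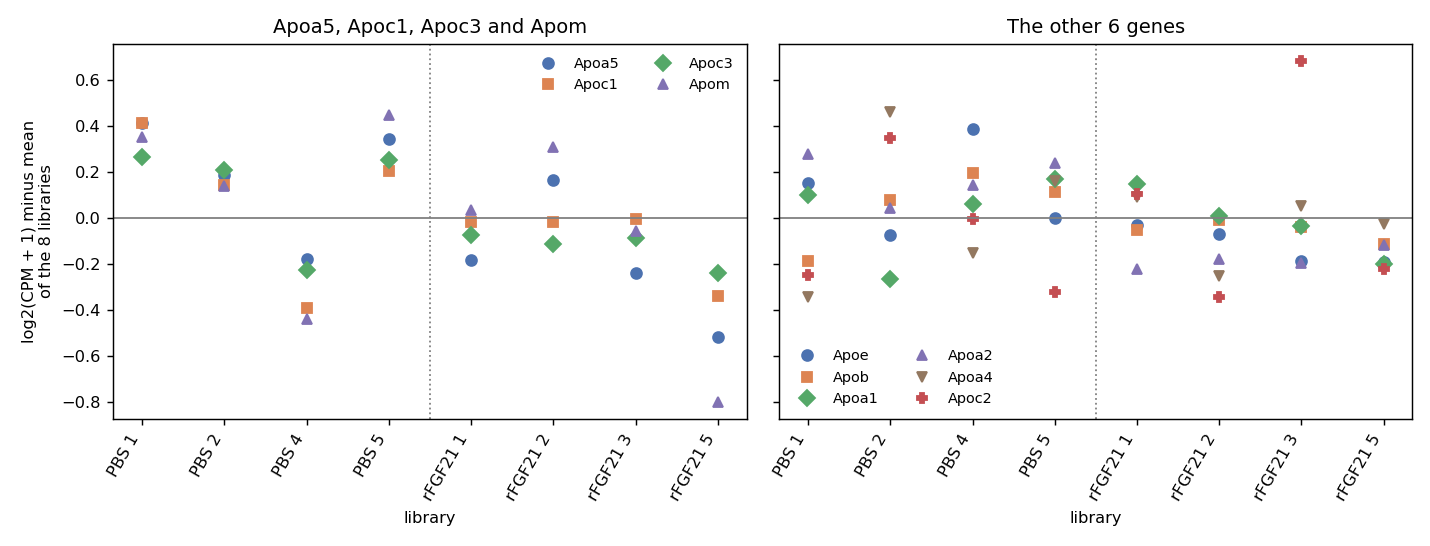
Deviation of each gene's log2(CPM + 1) from its mean over 8 libraries (y axis) in each library (x axis; PBS left and rFGF21 right of the dotted line). On the left Apoa5, Apoc1, Apoc3 and Apom lie below 0 together in PBS library 4 and rFGF21 library 5 and above 0 together in PBS libraries 1, 2 and 5; on the right the other 6 genes lie on both sides of 0 in PBS library 4 and below 0 in rFGF21 library 5.

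For the 3 members with the smallest p, the genes of most like pattern were sought among 8691 tested genes with a mean of at least 10 CPM, by Pearson r of log2 CPM over the 8 libraries. Nearest to Apoa2 were Nfib, which encodes a transcription factor (r = 0.98), Pecr, a peroxisomal enoyl-CoA reductase (0.97), and Abcb10, a mitochondrial transporter (0.96). Of these Abcb10 fell after rFGF21, from 25.6 to 17.4 CPM (-0.56 ± 0.08 SE, edgeR adjusted p = 0.00887). Nearest to Apoa5 were Nars2, Prpsap1 and Etnppl (0.97, 0.97 and 0.96). Nearest to Apoc3 were the ferritin gene Ftl1 (0.99), the electron transfer gene Etfb (0.98) and Creb3l3 (0.98), which encodes a liver transcription factor of lipid genes and had -0.33 ± 0.15 (SE, edgeR adjusted p = 0.271). These r are the highest of many, and are given as a description.

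Start regions are shown for 3 members that lie apart in the comparison: Apoa1, whose groups overlapped almost wholly, Apoa2, whose groups did not overlap in CPM, and Apoa5, with the largest fitted difference. The sequences are RefSeq's, build GRCm38.p6, plus strand. Each ends before the RefSeq start or, for Apoa1, before the start in the deposited table, which lies 50 bases upstream of it. RefSeq windows were matched for 8 of the 10 members. Of 2 windows each for Apoa2 and Apoa5, the upstream one is shown for Apoa5 and the one at the start in the deposited table for Apoa2. Capitals mark matches, on either strand, to the forkhead motifs TGTTTGC or TGTTTAC or to TATAAA.
Apoa1, chr9:46228380-46228579: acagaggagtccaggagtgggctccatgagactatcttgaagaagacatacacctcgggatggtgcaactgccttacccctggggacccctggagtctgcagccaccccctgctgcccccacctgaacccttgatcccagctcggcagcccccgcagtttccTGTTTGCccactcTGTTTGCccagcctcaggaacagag
Apoa2, chr1:171224804-171225053: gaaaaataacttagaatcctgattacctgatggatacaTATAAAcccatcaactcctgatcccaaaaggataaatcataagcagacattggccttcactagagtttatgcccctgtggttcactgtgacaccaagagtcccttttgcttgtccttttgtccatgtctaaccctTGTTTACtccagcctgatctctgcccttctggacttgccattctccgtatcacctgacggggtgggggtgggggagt
Apoa5, chr9:46268358-46268607: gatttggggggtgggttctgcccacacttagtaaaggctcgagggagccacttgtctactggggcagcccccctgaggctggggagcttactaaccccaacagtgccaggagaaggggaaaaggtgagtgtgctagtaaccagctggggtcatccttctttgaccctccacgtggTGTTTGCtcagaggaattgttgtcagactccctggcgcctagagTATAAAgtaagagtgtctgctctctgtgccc

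In these windows Apoa1 held TGTTTGC at 2 positions, 88 and 75 bases before the RefSeq start, Apoa5 held it 75 bases before the start, and Apoa2 held TGTTTAC 77 bases before the start. From the Apoa5 start in the deposited table the same match lies 100 bases upstream, and the other window of Apoa2, at a start of 171221564, held none of the motifs. Apob also held the first of these, and a window of Apoe the second. Of 32851 promoter windows of 300 bases, 5.07% held TGTTTGC and 3.65% held TGTTTAC. The motif TATAAA was found in the printed windows of Apoa2 (212 bases before the start) and Apoa5 (31 bases before the start). It was also found for Apob and Apoe, and in 13.6% of all windows. The HNF4 motif TGNACTTTG was found for Apoa4 alone among the matched members and in 1.41% of all windows. The cyclic AMP element core TGACGT (7.51% of all windows) and the C/EBP motif TTGCGNAA (0.798%) were in none of the members' windows, nor were the longer motifs for HNF1, LXR and the nuclear receptor repeat spaced by 1 base. A match is a run of letters and was not tested as a binding site.

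The other genes of lipoprotein metabolism were read from 6 lists, in which 1 of 114 genes tested rose and 6 fell by edgeR's test, against 1.15% higher and 1.67% lower over all genes. DESeq2 called 2 higher and 12 lower in these lists, against 4.45% and 5.21% over all genes to which it gave an adjusted p, and limma-voom called 1 and 6. Among 12 tested other apolipoproteins, Apol7a, of the apolipoprotein L family, was the 1 that passed by edgeR. It fell from 132, 131, 145 and 103 CPM in PBS libraries to 55.5, 59.1, 71.1 and 61.4 CPM in rFGF21 libraries, a fold of 0.485 (log2 SE 0.12, edgeR adjusted p = 0.00504). It kept the call in all 17 alternatives, but Apol7a has close paralogs in mouse, and its reads are uncertain for that reason. Apon (-0.38 ± 0.12, edgeR adjusted p = 0.127), Apoc4, the neighbour of Apoc2 (-0.28 ± 0.13, 0.293), and Clu, clusterin (0.31 ± 0.17, 0.366), did not pass by edgeR, while DESeq2 called Apon lower. The list's median was -0.18.

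Of 26 genes of lipoprotein assembly and secretion, 3 fell and none rose by edgeR, with a list median of -0.08. Lpcat3, which remodels the phospholipids of nascent VLDL, fell from 86.7 to 98.1 CPM in PBS libraries to 61.5 to 64.9 CPM (-0.58 ± 0.07 SE, edgeR adjusted p = 0.00611) and kept the call in all 17 alternatives. Its libraries were far apart between groups and close together within them. Smlr1, a liver membrane protein gene, fell by 0.46 ± 0.09 on the log2 scale, from 35.5 ± 2.29 to 25.9 ± 2.43 CPM (edgeR adjusted p = 0.0338), and Dgat2, which makes triglyceride, fell by 0.48 ± 0.11 (0.0446). The Smlr1 call was kept without PBS library 4 or rFGF21 library 3 and lost without any other library (edgeR adjusted p 0.0599 to 0.0980), and that of Dgat2 was kept without PBS library 4 alone (0.0328, against 0.0718 to 0.122). Each kept its call in 6 of the 9 alternatives in processing, and over all 17 alternatives Smlr1 kept it in 8 and Dgat2 in 7. Apobec1, the enzyme that edits Apob mRNA, stood at 41.8 ± 2.89 and 54.6 ± 4.97 CPM with no overlap (0.38 ± 0.09 SE, edgeR adjusted p = 0.0540). Its RNA-binding partner A1cf (-0.63 ± 0.22, 0.151), Cideb (-0.29 ± 0.08, 0.0999) and Mttp, the transfer protein that loads lipid on Apob (-0.24 ± 0.10, 0.219), did not pass by edgeR. DESeq2 called Apobec1 higher and A1cf and Cideb lower, besides the 3 genes that fell by edgeR. The highest A1cf value was in PBS library 4 (72.5 CPM, against 33.3 to 51.5 CPM in the other PBS libraries), and its groups overlapped.

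Of 14 genes of HDL remodelling and cholesterol efflux, endothelial lipase Lipg was the 1 that passed by edgeR, and DESeq2 called Lipg and Pon1 lower. Lipg had 7.47 to 13.9 CPM in the PBS group and no more than 2.76 CPM in any rFGF21 library, and fell with a wide gap between the groups (-2.58 ± 0.32 SE, edgeR adjusted p = 0.00552), and by 1.23 on log2(RPKM + 1), a scale that understates the change of low genes. Pon1 (-0.54 ± 0.18, edgeR adjusted p = 0.145), Abcg1 (0.43 ± 0.16, 0.180) and Lcat (-0.32 ± 0.13, 0.212) did not pass by edgeR, and the list median was -0.11. None of the 11 genes read of the lipoprotein lipase system passed by edgeR, DESeq2 or limma-voom, with 1 lower by edgeR at an unadjusted p under 0.05, as were 9.86% of all genes tested. There Lmf1 stood at -0.26 ± 0.10 (SE, edgeR adjusted p = 0.181), Angptl4 at -0.94 ± 0.43 (0.270), Sel1l at -0.16 ± 0.10 (0.420) and Lpl itself at 0.04 ± 0.13 (0.904), and the list median was -0.08.

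None of the 14 receptor and uptake genes read passed by edgeR, DESeq2 or limma-voom, and at an unadjusted p under 0.05 by edgeR 2 were higher, where 8.92% of all genes tested were higher at that level. These were the endocytic adaptor gene Dab2 (0.33 ± 0.11 SE, edgeR adjusted p = 0.139) and the scavenger receptor gene Msr1 (0.44 ± 0.17, 0.185). The VLDL receptor gene Vldlr stood at 18.3 and 23.5 CPM (0.36 ± 0.17 SE, edgeR adjusted p = 0.297). The list median was 0.17.

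Among 37 regulators known to act on apolipoprotein genes, Nr0b2 (the repressor SHP) rose and Nr1h4 (the bile acid receptor FXR) fell by edgeR. DESeq2 called these and also Cebpb and Thrb, both lower. Nr0b2 had 3.61 to 8.19 CPM in PBS and 19.0 to 32.9 CPM in rFGF21 libraries (2.17 ± 0.28 SE, edgeR adjusted p = 0.00606). Nr1h4 fell by 0.60 ± 0.11 on the log2 scale (edgeR adjusted p = 0.0227) and kept the call in 12 of 17 alternatives, losing it without PBS library 1 and in each fit lacking an rFGF21 library (0.0559 to 0.0653). Hnf4a, the nuclear receptor on which most hepatocyte apolipoprotein genes depend, stood at 554 and 603 CPM (0.12 ± 0.12 SE, edgeR adjusted p = 0.623), Ppara at -0.06 ± 0.13 (0.865), Cebpb at -1.02 ± 0.26 (0.0628), Thrb at -0.62 ± 0.19 (0.109) and the LXR gene Nr1h3 at -0.29 ± 0.09 (0.131). The list median was -0.06.

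**Figure D4:**
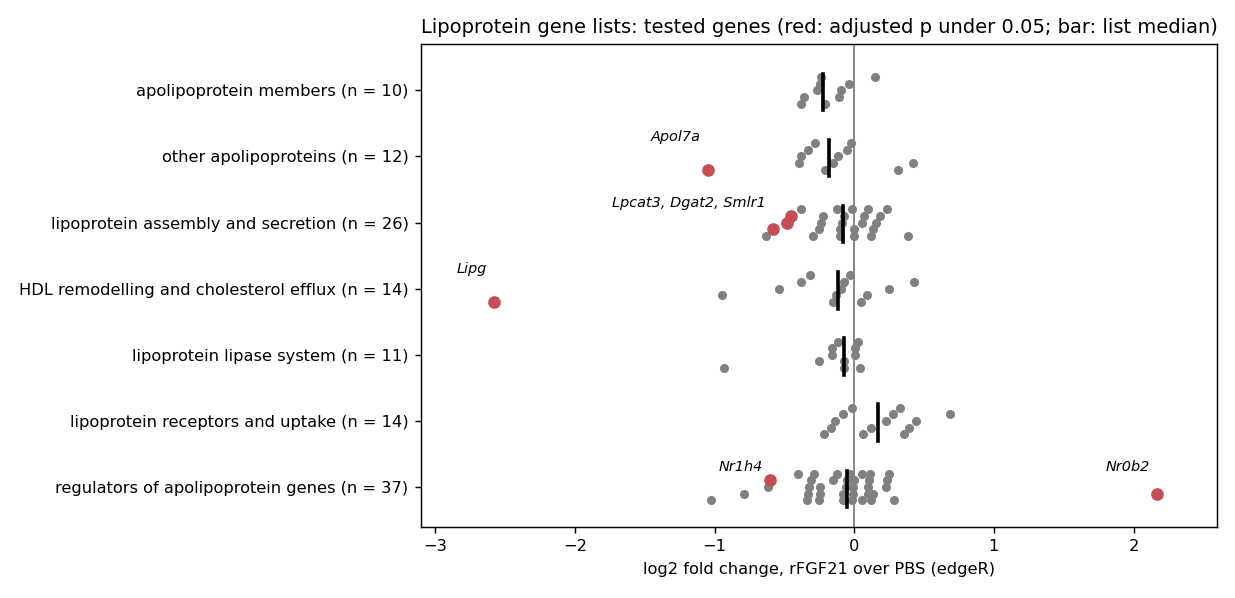
Log2 fold change, rFGF21 over PBS, as fitted by edgeR (x axis) of every tested gene in the apolipoprotein set and 6 related lists (rows; vertical offsets within a row carry no value). Red points passed at adjusted p under 0.05 and are named from left to right, grey points did not, and black bars are list medians; Lipg at -2.58 and Nr0b2 at 2.17 lie farthest from 0, while all 10 apolipoprotein genes lie between -0.38 and 0.15.

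Markers of liver cell types were read in the same libraries, because Apoe and Apoc1 are also made by macrophages, and in whole tissue fewer cells of a type cannot be told apart from less RNA per cell. No marker of any list passed by edgeR or limma-voom. DESeq2 called higher 3 of 6 erythroid markers tested (Hba-a1, Hbb-bs and Hbb-bt) and 2 of 8 cholangiocyte markers (Krt19 and Sox9). It also called higher 2 of 12 stellate cell markers (Col1a1 and Col1a2), 1 of 9 hepatocyte markers (Fgb) and 1 of 10 lymphocyte markers (Cd8a). These are named after their values were seen. Over all genes to which DESeq2 gave an adjusted p, 4.45% were higher. Of 14 Kupffer cell and macrophage markers, 7 lay above and 7 below 0, and their summed level was 1208 to 1826 CPM in PBS and 1208 to 1566 CPM in rFGF21 libraries. Picked out after their values were seen, the Kupffer cell genes Clec4f (-0.53 ± 0.28), Vsig4 (-0.61 ± 0.29), Timd4 (-0.86 ± 0.33), Marco (-1.22 ± 0.70) and Cd5l (-0.49 ± 0.37) all lay below 0, with edgeR adjusted p from 0.186 to 0.523. Each was lowest of all 8 libraries in rFGF21 library 5 (Clec4f at 65.8 and Cd5l at 50.6 CPM). In CPM, Apoa5, Apoc3, Apoe and Apom were also lowest there, and Apoc1 was the lowest of its group. For Apoe and Apoc3 this depended on the scaling. In RPKM, Apoe in rFGF21 library 5 (6837) was above rFGF21 library 3 (6324), and Apoc3 (683) was above PBS library 4 (581). Apoa5 and Apom were still lowest there in RPKM, and Apoc1 still the lowest of its group. Of the other macrophage markers, Gpnmb was lowest there too (1.22 CPM), whereas Csf1r (173 CPM) and Trem2 (25.8 CPM) were highest. Apoe was about as low in rFGF21 library 3 (13426 against 13393 CPM), where Clec4f had 207 and Cd5l 216 CPM. For the signs of the lists, 49.6% of all genes tested lay below 0 by edgeR. Of 9 hepatocyte markers 6 lay below 0, with sums of 67921 to 86908 and 65438 to 83456 CPM. All 8 cholangiocyte markers (sums of 208 to 296 and 264 to 408 CPM), all 7 neutrophil markers tested (13.1 to 21.1 and 15.8 to 33.8 CPM) and all 6 erythroid markers tested (303 to 415 and 412 to 756 CPM) lay above 0. Stellate cell markers had 9 of 12 above 0 (877 to 1181 and 1049 to 1582 CPM), sinusoidal endothelial markers 3 of 10 (129 to 278 and 113 to 229 CPM), lymphocyte markers 6 of 10 (10.5 to 11.3 and 10.4 to 12.5 CPM) and enterocyte markers 2 of 3 (33.5 to 48.8 and 38.2 to 48.8 CPM). The part of these shifts in the apolipoprotein values was not tested.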

How the data were processed

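Per the labels, RNA was taken up in Trizol and sequenced from Illumina TruSeq libraries. The authors deposited raw read counts per gene. Bowtie 0.12.2 and build mm8 stand in the submitters' processing notes, but the table's gene coordinates are of GRCm38: all 10 members, and 27322 of the 30177 gene identifiers found in GENCODE mouse release 21, had identical coordinates there. No source used here states the counting tool or its strand setting. The 4 count columns per group whose name also occurs among the table's FPKM columns were used. A further 10 columns of values (2 of counts and 8 of FPKM) were not used. The 2 of counts have no FPKM column of the same name. The 8 of FPKM were left out because column numbers differ from sample numbers, which ties columns to groups only and leaves 1 measure. RPKM was computed from the counts with GENCODE exon lengths.

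Deposited counts were filtered with filterByExpr, scaled by TMM and tested with edgeR 4.0.16 (R 4.3.3, glmQLFit and glmQLFTest, two-sided, no covariates), with Benjamini-Hochberg adjustment over 18315 genes. Gene-wise adjusted p-values without a named tool come from it, as do standard errors, by way of its F statistic. Intervals are 95%. Alternatives were DESeq2 1.42.0, limma 3.58.1 (voom and, chosen after seeing the data, log2(RPKM + 1) of genes with a mean RPKM of at least 1), other scalings and filters, and leaving out each library. The steps were also run on simulated counts with set fold changes, and the share of those changes that was recovered is not given here. Ratios and pairs of members were tested with exact permutation tests. A floor of 3 reads stands for a count of 0.

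The members, lists and motifs were chosen with earlier results of these data known. Genes named are all members, every list gene that passed with up to 3 others of smallest p, and the 3 genes most like each of 3 members. Lpl, Mttp, Hnf4a and Ppara were added for their role. Of the listed genes, Lpa, Pcpe2, Tf, Opn1mw, Nrl, Sis, Lct, Alpi, Cdx1 and Cdx2 had no row under that name. Some genes of the lists are not reported here, and the lists' counts and medians leave them out.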

Additional observations from a re-analysis of the deposited data

Results flagged for a closer look

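In groups of 4 libraries, a library was marked where its gap to the nearest other exceeded the 95% critical value of Dixon's test. Of 20 groups (10 genes in PBS and in rFGF21), 2 had such a library, where chance marks about 1 in 20. Apoc3 in PBS library 4 had 641 CPM against 867 to 901 CPM in the other PBS libraries. Apoc1 in rFGF21 library 5 had 1264 CPM against 1577 to 1595 CPM in the other rFGF21 libraries. These are the 2 libraries in which Apoa5 and Apom were also the lowest of their groups. PBS library 4 had the highest mitochondrial share of reads (7.96%), while rFGF21 library 5 had 4.26%, near the others, and the part of that share in the Apoc3 value was not tested.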

How the results depend on the processing

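No apolipoprotein gene was called higher in any of 17 alternatives, and 1 (Apoa2) was called lower with DESeq2 and none in the other 16. The count of all genes called moved from 516 to 1527 with DESeq2, to 198 without a filter on counts, and to between 131 and 486 when 1 library was left out. Apoa2, Apoa5, Apob, Apoc1, Apoc3, Apoe and Apom kept their direction in all 17. Apoa1 had a log2 fold change of 0.0444 with library totals and 0.0481 on log2(RPKM + 1), and ran from -0.13 to 0.0207 without 1 library. Apoa4 had 0.0179 on log2(RPKM + 1), and ran from -0.20 to 0.0684 without 1 library. Apoc2 ran from -0.11 to 0.30 without 1 library. The log2 ratio of Apoc1 differed by -0.23 with Alb in place of Apoe. Without 1 library, Apoc1 over Apoe ran from -0.20 to 0.14 and Apoa4 over Apoa1 from -0.18 to 0.21. The cause was not tested. With 4 against 3 libraries the smallest exact permutation p is 0.0571. The alternatives planned on the authors' FPKM values were not run, since those columns were not used. No paired analysis was possible because column numbers do not match the replicate numbers of the labels.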
